A study of Rattus norvegicus with 10 samples.

Results

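A set of 7 rat genes of the neurotrophin system was followed in the ipsilateral hippocampal dentate gyrus, namely the ligand genes Bdnf and Ntf3, the receptor genes Ntrk2, Ntrk3 and Ngfr, and the sorting receptor genes Sort1 and Sorcs3. They were chosen by name. All 7 were found among the 14166 genes of the bulk table, where all 7 passed the filter on low counts and were tested, and among the 25399 genes of the nucleus matrices. The rats were young adult male Sprague-Dawley rats. TBI rats received a lateral fluid percussion injury, a pressure pulse onto the intact dura, through a craniectomy made days earlier. Sham rats had the craniectomy without the pulse, and the 1 naïve rat is labelled as without either. Tissue of the TBI and sham rats was taken 3 weeks after the procedure. Bulk polyA RNA was sequenced from 3 sham and 3 TBI rats, and nuclei were sequenced from 2 TBI rats, 1 sham rat and 1 naïve rat, each rat on its own, with the sham and naïve rats together as the control, as the study grouped them. All 10 samples are separate rats.

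Neurotrophins are secreted growth factors that are made as precursors and cleaved to mature ligands. Brain-derived neurotrophic factor, the product of Bdnf, binds the receptor tyrosine kinase TrkB (Ntrk2), and neurotrophin-3, the product of Ntf3, binds mainly TrkC (Ntrk3). The precursors bind the low-affinity receptor p75NTR (Ngfr) together with sortilin family members such as sortilin (Sort1), which also routes pro-BDNF into the secretory pathway, while SorCS3 (Sorcs3) is a family member found at postsynaptic sites. Granule neurons are the principal neurons of the dentate gyrus, and their mossy fiber axons are a known site of BDNF protein.

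The bulk libraries held 24730290 to 43912297 gene counts. The study's filters on nuclei left 55124 of 55863 barcodes, with 26086141 to 35293678 unique molecular identifiers (UMIs) per rat and a median of 1647 to 2652 UMIs per nucleus. Between 45 and 60 barcodes were shared by any pair of libraries. Nuclei were clustered with the 7 genes left out of the variable genes, and 18 of 23 clusters were named from marker genes into 13 classes (granule-like, astrocyte-like and so on, written below without the suffix). The 4 granule clusters held 29322 nuclei, with Prox1, Plk5, Trpc6, Stxbp6 and other granule markers. A further 3 clusters (752, 632 and 611 nuclei) carried markers of oligodendrocytes, microglia or oligodendrocyte precursor cells (OPC) together with those of granule neurons and were kept out of the classes, as were 2115 nuclei led by mitochondrial genes and a cluster of 49 nuclei. Levels in nuclei are given as CPM, the UMIs of the gene scaled to 1000000 UMIs of the class in that rat.

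**Figure D1:**
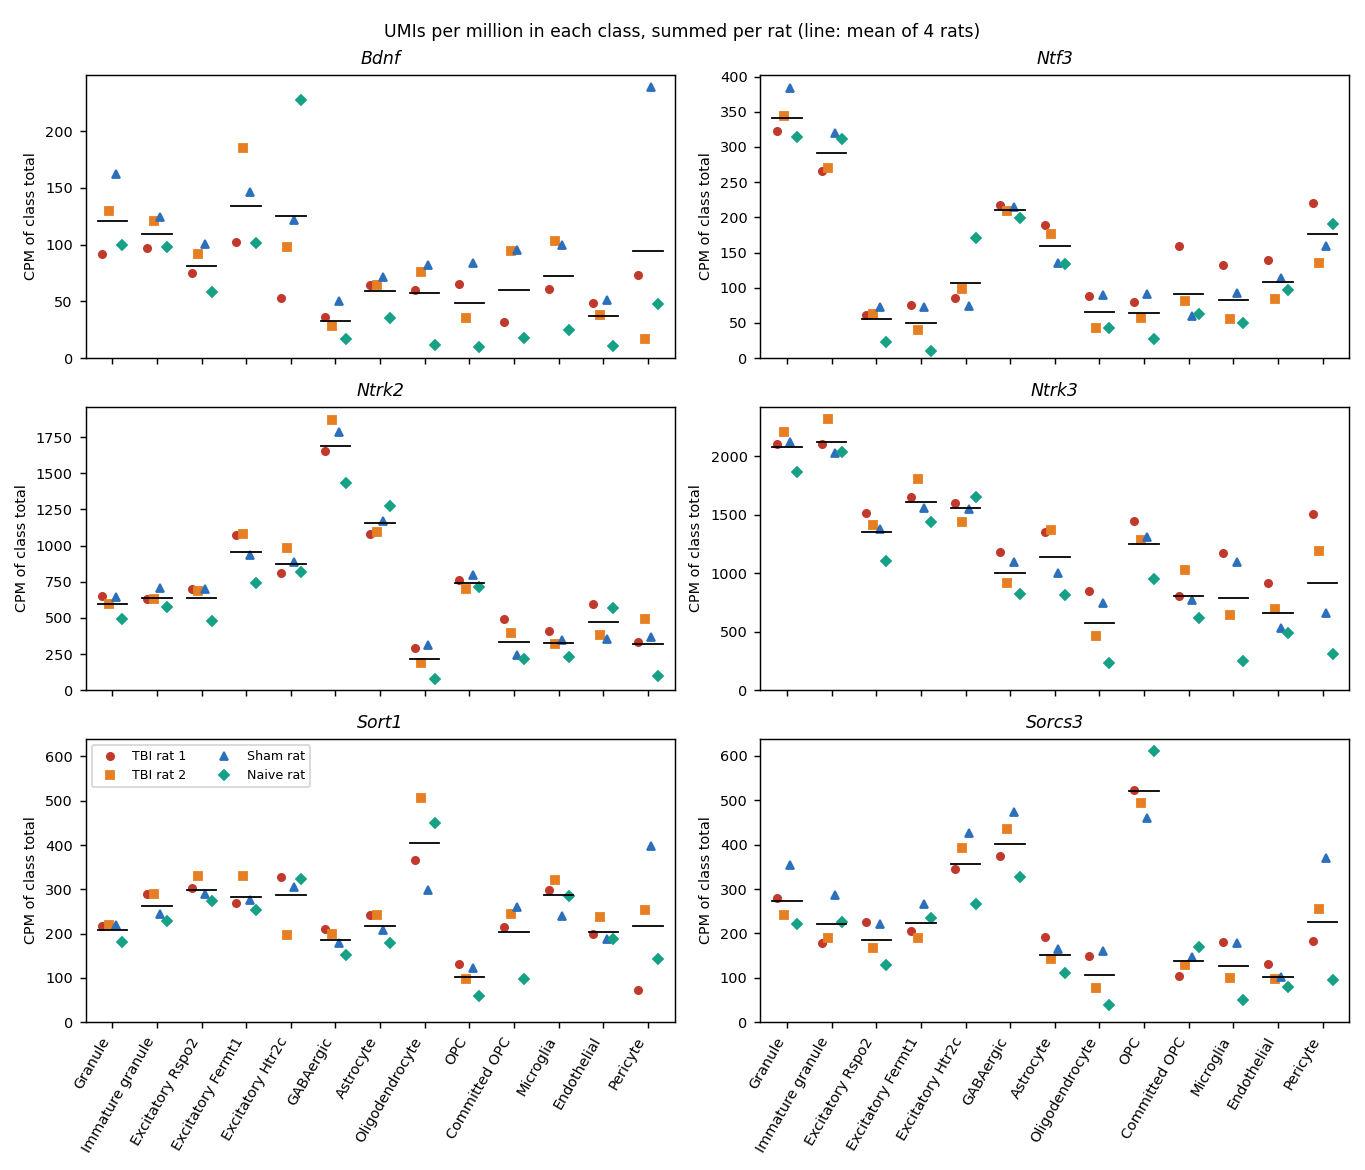
Level of 6 of the 7 genes in each of 13 nucleus classes, in CPM of the class total (vertical axis), with 1 point per rat and a line at the mean of 4 rats. By mean, Ntrk2 was highest in GABAergic nuclei and next in astrocytes, Ntf3 in granule nuclei, Ntrk3 in granule and immature granule nuclei, Sort1 in oligodendrocytes and Sorcs3 in OPC, while Bdnf was lowest in GABAergic nuclei. Ngfr is not drawn because it had 10 UMIs in all.

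Among the ligands, Bdnf had its highest class means in glutamatergic neurons. In granule nuclei it stood at 92.0 and 129.97 CPM in the TBI rats, 162 CPM in the sham rat and 99.4 CPM in the naïve rat (8389 UMIs), so the sham rat was highest and both groups overlapped. Its mean over the 4 rats was 121 ± 32.02 CPM (SD, n = 4) in the granule class, 109.8 ± 14.7 CPM in immature granule nuclei, 134 ± 40.2 CPM in an excitatory cluster led by Adamts2 and Fermt1, and 81.5 ± 18.7 CPM in an excitatory cluster led by Khdrbs3 and Rspo2. GABAergic nuclei were lowest, at 35.9, 28.4, 50.6 and 17.1 CPM in the 2 TBI rats, the sham rat and the naïve rat. Neighbouring classes overlapped in range throughout the order of Bdnf levels, but the granule and GABAergic ranges (92.0 to 162 CPM and 17.1 to 50.6 CPM) did not meet.

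The granule neurons were not uniform for Bdnf. Of the 4 granule clusters, the one led by Serinc2, Tcerg1l and Penk (Penk encodes proenkephalin, an opioid peptide precursor) held 199 ± 34.5 CPM, the large cluster led by Robo3 and Plk5 134 ± 40.8 CPM, the Niban3 and Ano2 cluster 98.4 ± 21.5 CPM and the Wipf3, Tspan18 and Ror2 cluster 48.0 ± 26.4 CPM. The Penk cluster was above the Ror2 cluster in each of the 4 rats, with 153, 212, 235 and 198 CPM against 39.0, 53.0, 81.4 and 18.5 CPM in the same order of rats. Prox1, a transcription factor of granule neurons, stood at 344 ± 44.2 CPM and 459 ± 65.8 CPM in these clusters. These contrasts between clusters, and those of Sorcs3 below, are descriptions, since the clusters were drawn from the same nuclei. They rest on clusters drawn after the 4 libraries were integrated. Without integration the granule nuclei split largely by rat. For example, 1 cluster had 6992 of 7336 nuclei from the sham rat and another 6100 of 6208 from TBI rat 1. No granule cluster then had Penk among its leading genes, and the contrasts were not repeated there.

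Sorcs3 varied in the same way among the granule clusters. It held 598 ± 82.9 CPM in the Penk cluster, 284 ± 60.4 CPM in the Robo3 cluster, 199 ± 60.8 CPM in the Niban3 cluster and 55.1 ± 38.5 CPM in the Ror2 cluster. In the Penk cluster the 2 TBI rats, the sham rat and the naïve rat read 559.6, 527, 717 and 590.5 CPM, and in the Ror2 cluster 86.3, 27.9, 90.0 and 16.3 CPM, so every rat of the former was above every rat of the latter. Ntf3 did not share this pattern, with means from 289 to 379 CPM over the 4 granule clusters and its highest mean in the Ror2 cluster. Ntrk2, Ntrk3 and Sort1 ranged from 527 to 672, from 1836 to 2424 and from 187 to 226 CPM.

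**Figure D2:**
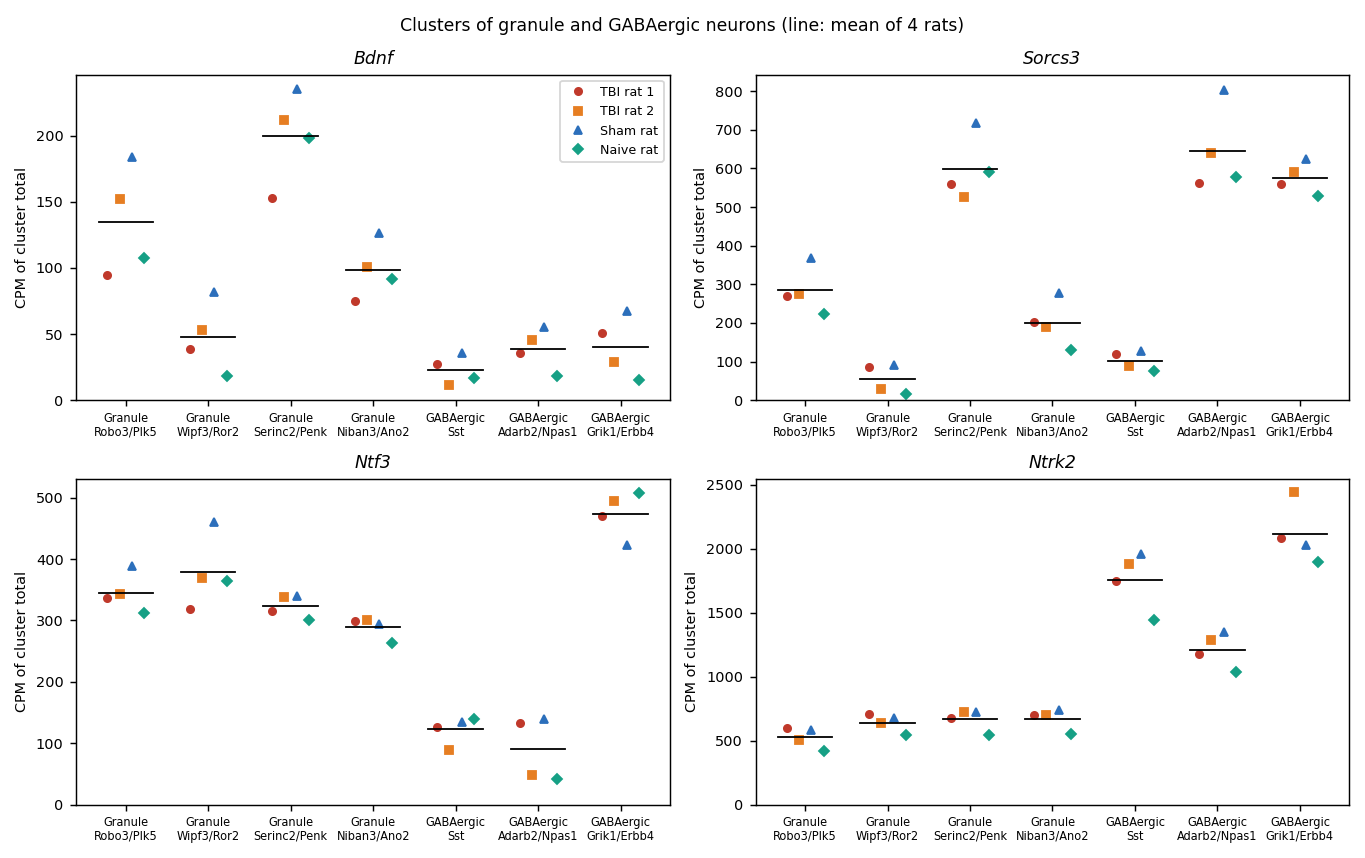
Bdnf, Sorcs3, Ntf3 and Ntrk2 in 4 granule clusters and 3 GABAergic clusters, in CPM of the cluster total (vertical axis), with 1 point per rat and a line at the mean of 4 rats. Bdnf and Sorcs3 were highest among granule clusters in the Serinc2 and Penk cluster and lowest in the Wipf3 and Ror2 cluster, and Ntf3 was high in 1 of the GABAergic clusters.

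The DNA before the start of these genes is shown because Bdnf and Sorcs3 were highest in the same granule cluster and because Bdnf is known for several promoters. RefSeq (build GRCr8, which differs from the Rnor_6.0 build of the nucleus counts) lists 6 Bdnf starts and 1 Sorcs3 start. The 250 bases before each start were searched for TGACGT or, on the other strand, ACGTCA, the core of the cAMP response element. Of the 6 Bdnf windows 1 held it, as did 6.95% of 33469 promoter windows of that length, and the Sorcs3 window, the Sort1 window and the 3 Ntf3 windows did not. A match is a description of the letters only, and counts at the 3′ end of transcripts do not tell which start was used. Capitals mark the match.
Bdnf, chr3:116637608-116637857, plus strand: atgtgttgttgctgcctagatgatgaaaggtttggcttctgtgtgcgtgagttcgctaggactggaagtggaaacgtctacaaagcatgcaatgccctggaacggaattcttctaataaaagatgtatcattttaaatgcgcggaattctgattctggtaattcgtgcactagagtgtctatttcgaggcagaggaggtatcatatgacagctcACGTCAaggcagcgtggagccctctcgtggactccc
Sorcs3, chr1:257040192-257040441, plus strand: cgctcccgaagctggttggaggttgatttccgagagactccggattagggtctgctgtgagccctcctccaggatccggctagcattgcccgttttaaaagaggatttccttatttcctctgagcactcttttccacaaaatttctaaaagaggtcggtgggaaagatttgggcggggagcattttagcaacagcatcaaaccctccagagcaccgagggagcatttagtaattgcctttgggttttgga

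Ntf3 had its highest class level in granule neurons, and 1 GABAergic cluster exceeded them. Granule nuclei held 323 and 343 CPM in the TBI rats, 384 CPM in the sham rat and 314 CPM in the naïve rat, and immature granule nuclei 292 ± 27.6 CPM (SD, n = 4). The other glutamatergic clusters were lower, at 107 ± 43.5 CPM in the cluster led by Htr2c, 54.9 ± 21.8 CPM in the Rspo2 cluster and 49.5 ± 30.5 CPM in the Fermt1 cluster, and the ranges of these clusters did not meet that of the granule class. GABAergic nuclei as a class held 210.0 ± 7.87 CPM. Within them, the cluster led by Grik1, Reln and Erbb4 read 469, 494, 422.2 and 507 CPM in the 2 TBI rats, the sham rat and the naïve rat, above 122 ± 22.5 CPM in the Sst cluster and 90.5 ± 52.9 CPM in the Adarb2 and Npas1 cluster.

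Of the pathway list's ligands, Ntf4 (neurotrophin-4) had 0 or 1 UMI in each of the 4 libraries. The upper limit that a count of 0 allows, taken as 3 UMIs of the library, was 0.0862 CPM in the naïve rat, and such limits cover counting error only.

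Among the receptors, Ntrk2 was highest in GABAergic neurons and astrocytes. GABAergic nuclei held 1651 and 1871 CPM in the TBI rats, 1786 CPM in the sham rat and 1436 CPM in the naïve rat, astrocytes 1079.7 and 1097 CPM in the TBI rats, 1172 CPM in the sham rat and 1272 CPM in the naïve rat, and granule nuclei 652 and 593 CPM in the TBI rats, 647 CPM in the sham rat and 493 CPM in the naïve rat. The GABAergic range did not overlap the astrocyte range, nor the astrocyte range the granule range, while the excitatory Fermt1 cluster (741 to 1080.3 CPM) just met the astrocytes. Among GABAergic clusters the mean was 2112 ± 235 CPM in the Grik1 cluster, 1758 ± 226 CPM in the Sst cluster and 1210.4 ± 137 CPM in the Adarb2 cluster. OPC held 744 ± 44.6 CPM, and oligodendrocytes were lowest at 217 ± 106 CPM. The full-length and truncated TrkB transcripts could not be told apart in these counts.

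Ntrk3 had its highest levels in granule nuclei, at 2102 and 2207 CPM in the TBI rats, 2120.2 CPM in the sham rat and 1866 CPM in the naïve rat (142796 UMIs), and in immature granule nuclei, at 2121 ± 136 CPM (SD, n = 4), whose ranges overlapped. The 3 excitatory clusters outside the granule class had means of 1611, 1558 and 1351 CPM, and the whole range of each lay below the granule range. GABAergic nuclei held 1001 ± 164 CPM, OPC 1246 ± 208 CPM and oligodendrocytes 571 ± 281 CPM. Ngfr was close to absent from the nuclei, with 1, 2, 4 and 3 UMIs in the libraries of the 2 TBI rats, the sham rat and the naïve rat. These 10 UMIs correspond to 0.0308 to 0.113 CPM per library, and no class had more than 4.

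Of the sorting receptors, Sort1 was highest in oligodendrocytes, with 365.9 and 506 CPM in the TBI rats, 299 CPM in the sham rat and 450.3 CPM in the naïve rat. Granule nuclei held 217 and 219.6 CPM in the TBI rats, 219 CPM in the sham rat and 182 CPM in the naïve rat, all below the lowest oligodendrocyte value. The Rspo2 and Fermt1 clusters (299 ± 24.4 CPM and 282 ± 32.7 CPM) and microglia (287 ± 33.8 CPM) lay between them by mean, with ranges that overlapped that of oligodendrocytes, and OPC were lowest at 103 ± 32.3 CPM. Oligodendrocytes and OPC, which belong to 1 lineage, thus had the highest and the lowest Sort1 level of the 13 classes, without overlap between rats.

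Sorcs3 had the opposite order in that lineage. OPC held 522 and 494 CPM in the TBI rats, 461 CPM in the sham rat and 610.1 CPM in the naïve rat, committed OPC 137 ± 28.0 CPM and oligodendrocytes 106 ± 57.9 CPM (SD, n = 4). GABAergic nuclei held 402 ± 65.1 CPM as a class, from 646 ± 110.3 CPM in the Adarb2 and Npas1 cluster and 576 ± 41.6 CPM in the Grik1 and Erbb4 cluster down to 103 ± 25.2 CPM in the Sst cluster. The ranges of the Adarb2 and Sst clusters, 562 to 804 CPM and 75.0 to 129 CPM, were wide apart. Sorcs1, a further gene of this receptor family on the pathway list, was also high in OPC (725 ± 163 CPM) but, unlike Sorcs3, high in oligodendrocytes (558 ± 134 CPM) and endothelial nuclei (691 ± 211 CPM), against 48.9 ± 16.2 CPM in granule nuclei. Sorcs2 was highest in the Fermt1 cluster, at 479.7 ± 49.9 CPM.

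Glial classes also held counts of genes typical of granule or other glutamatergic neurons. The source of these counts was not tested, and their levels are given beside those of the members. Prox1 in microglia stood at 0.468 of its granule level, C1ql2, a synaptic protein gene of granule neurons, at 0.839, the vesicular glutamate transporter gene Slc17a7 at 0.457 and Camk2a at 0.208. In microglia Bdnf (0.597), Ntf3 (0.242), Ntrk2 (0.548), Ntrk3 (0.380) and Sorcs3 (0.467) lay within the range of these 4 genes, and Sort1 (1.37) was above it. The part of granule RNA in the member levels of glia was not tested. In astrocytes the 4 neuronal genes stood at 0.558, 0.621, 0.547 and 0.549, and Ntrk2 (1.94) and Sort1 (1.04) exceeded them. In OPC they stood at 0.384, 0.521, 0.339 and 0.161, and Sorcs3 (1.91), Ntrk2 (1.248) and Ntrk3 (0.601) exceeded them. In oligodendrocytes Sort1 (1.94) alone of the 6 genes was above all 4 neuronal genes. The median depth was 605 to 774 UMIs per nucleus in microglia, 794 to 1208 in OPC, 700 to 1090 in oligodendrocytes, 1326 to 2424 in astrocytes and 1757 to 2736 in granule nuclei over the 4 rats.

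**Figure D3:**
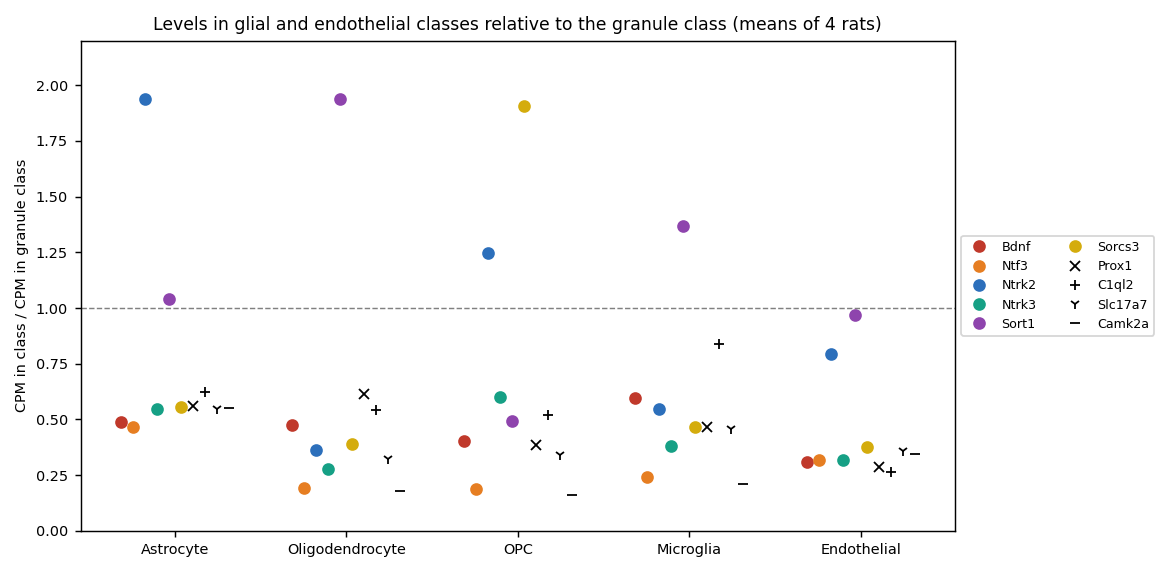
Level in 5 non-neuronal classes divided by the level in granule nuclei (vertical axis, means of 4 rats), for 6 members (coloured circles) and 4 neuronal genes (black marks). Above the black marks stood Ntrk2 and Sort1 in astrocytes and endothelial nuclei, Sort1 in oligodendrocytes and microglia, and Sorcs3, Ntrk2 and Ntrk3 in OPC. Bdnf and Ntf3 stood at or among them or below them in every class drawn.

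The genes whose level followed each member most closely over the 13 classes were listed as a description (Pearson r over 13 class means of log2(CPM + 1), points that share the 4 libraries). For Bdnf they included Kcng1 (r = 0.90), a potassium channel subunit, and Dnah2 (r = 0.89). For Ntf3 they were Myo5b (r = 0.95), Adcy1 (r = 0.93), Bcl11b (r = 0.92), where Bcl11b is a transcription factor and Adcy1 an adenylyl cyclase. Ntrk2 was followed by Gys1 (r = 0.91) and Caskin1 (r = 0.90), and Ntrk3 by Cacna1e (r = 0.97), Rgs7 (r = 0.96), Rap1gap2 (r = 0.96), with Cacna1e a calcium channel subunit and Rgs7 a regulator of G-protein signalling. For Sort1 they were Psen2 (r = 0.79), Adap1 (r = 0.77), Nipa1 (r = 0.75), with Psen2 encoding presenilin 2, and for Sorcs3 AABR07032496.1 (r = 0.93), Hap1 (r = 0.90), Adam22 (r = 0.88). Ngfr was below 10 CPM in every class and was not ranked.

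The main question of the design was whether these levels differed after TBI. In bulk tissue 0 of 7 members passed edgeR's quasi-likelihood test at an adjusted p of 0.05, as did 0% of the 14077 genes tested (smallest adjusted p 0.193), while 9.58% of genes and 0 of 7 members had an unadjusted p under 0.05. DESeq2, run as an alternative, called 346 genes and none of the members. Fewer cells of a type and less RNA per cell cannot be told apart in bulk tissue.

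Bdnf read 46.8, 43.1 and 45.05 CPM in the sham libraries and 38.6, 43.3 and 39.995 CPM in the TBI libraries (log2 fold change -0.15, 95% interval -0.37 to 0.07, edgeR adjusted p = 0.694). All but 1 TBI library were below the sham range, and the groups overlapped. Ntf3 read 16.4, 2.65 and 4.94 CPM in the sham libraries and 11.7, 3.15 and 6.17 CPM in the TBI libraries (log2 fold change -0.19, 95% interval -1.85 to 1.47, edgeR adjusted p = 0.972), a wide spread within each group that left its interval wide. The summed level of 8 granule neuron markers in the same libraries was 609, 119 and 127 CPM in the sham libraries and 413.6, 139.6 and 327 CPM in the TBI libraries, so the libraries low in granule markers (sham replicates 2 and 3, and TBI replicate 2) were also the 3 lowest in Ntf3. With the log2 of that sum as a covariate, chosen after seeing the data, the log2 fold change of Ntf3 was -0.33, and the part of tissue content in its spread was not tested further.

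Ntrk2 read 580.3, 688 and 572 CPM in the sham libraries and 649, 764 and 650.4 CPM in the TBI libraries (log2 fold change 0.16, 95% interval -0.12 to 0.45, edgeR adjusted p = 0.738). The highest library was a TBI library, and sham replicate 2 lay above the other 2 TBI libraries. Astrocyte markers, which include no member, had a summed level of 4806, 5164 and 4297 CPM in the sham libraries and 6997, 10030.1 and 7209 CPM in the TBI libraries, higher in every TBI library (7 of 9 measured markers had a positive log2 fold change), and the part of astrocyte content in the Ntrk2 values was not tested. Ntrk3 read 57.5, 42.5 and 39.99 CPM in the sham libraries and 54.5, 43.1 and 42.3 CPM in the TBI libraries (log2 fold change -0.001, 95% interval -0.40 to 0.40, edgeR adjusted p = 0.999). Ngfr stood at 0.532, 1.01 and 1.14 CPM in the sham libraries and 0.482, 1.01 and 0.970 CPM in the TBI libraries (log2 fold change -0.13, 95% interval -1.26 to 1.003, edgeR adjusted p = 0.973), the lowest of each group being replicate 1.

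Sort1 read 817, 1075 and 1072 CPM in the sham libraries and 807, 968 and 677 CPM in the TBI libraries (log2 fold change -0.27, 95% interval -0.67 to 0.12, edgeR adjusted p = 0.683), with TBI replicate 3 lowest. The summed oligodendrocyte markers were 5685, 18345 and 7212 CPM in the sham libraries and 5343, 8368 and 5429 CPM in the TBI libraries, and sham replicate 2 was highest for both. Sorcs3 read 45.1, 44.4 and 47.4 CPM in the sham libraries and 42.2, 35.2 and 43.5 CPM in the TBI libraries (log2 fold change -0.18, 95% interval -0.44 to 0.08, edgeR adjusted p = 0.683). It was the only member whose groups did not overlap, all TBI libraries being lower, as in 4.84% of all genes tested in that direction. All 7 measured glutamatergic markers had a negative log2 fold change (median -0.27), as did 7 of 9 GABAergic markers (median -0.25). Of 8 granule markers 4 were higher and 4 lower (median 0.03). With the granule marker covariate, chosen after seeing the data, the log2 fold change was -0.15 for Bdnf and -0.20 for Sorcs3. Glutamatergic and GABAergic markers were not used as covariates, and the part of neuron content in the Bdnf and Sorcs3 values was not tested further. The surgeries fell into 2 periods, an earlier one with sham replicates 1 and 2 and TBI replicate 1 and a later one with sham replicate 3 and TBI replicates 2 and 3. Within the earlier and the later period the TBI minus sham difference of log2 CPM was -0.22 and -0.11 for Bdnf, -0.08 and -0.27 for Sorcs3, -0.22 and -0.40 for Sort1, 0.04 and 0.30 for Ntrk2, 0.74 and -0.14 for Ntf3, 0.14 and 0.09 for Ntrk3 and -0.35 and -0.14 for Ngfr, with 1 library in 1 arm each time and so no test.

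**Figure D4:**
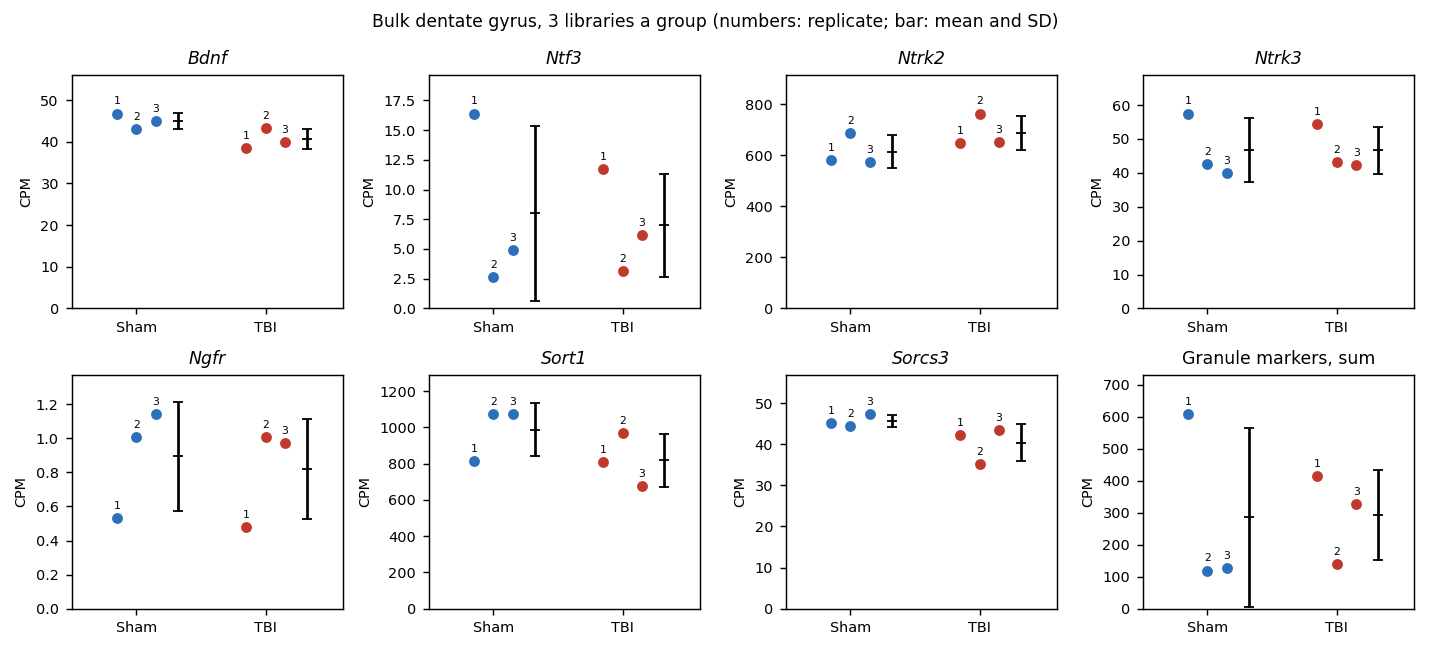
Bulk level of the 7 members and the sum of 8 granule neuron markers, in CPM (vertical axes, from 0), in 3 sham and 3 TBI libraries numbered by replicate, with the mean and SD beside them. Only for Sorcs3 did the groups not overlap, and Ntf3 and the granule markers spread widely within both groups.

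In the nuclei, UMIs were summed per rat and class and the 2 TBI rats were compared with the 2 control rats. Of 91 pairs of member and class, 69 had at least 100 UMIs and were tested, and 0 passed at an adjusted p of 0.05 (smallest 0.257), as did 0% of 105235 tests over all genes and classes. An unadjusted p under 0.05 was found for 6 of 69 pairs, 4 higher and 2 lower in TBI, and for 3.13% of all tests. DESeq2 called none of the pairs and 173 genes, all in astrocytes.

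In granule nuclei, where every member but Ngfr had at least 8389 UMIs, none of the differences exceeded the spread between rats. Bdnf had a log2 fold change of -0.27 (95% interval -1.06 to 0.51, edgeR adjusted p = 0.9995) and Ntf3 a log2 fold change of -0.12 (95% interval -0.53 to 0.29, edgeR adjusted p = 0.9995). Ntrk2 had a log2 fold change of 0.07 (95% interval -0.35 to 0.49, edgeR adjusted p = 0.9995) and Ntrk3 a log2 fold change of 0.06 (95% interval -0.37 to 0.49, edgeR adjusted p = 0.9995). Sort1 had a log2 fold change of 0.07 (95% interval -0.31 to 0.45, edgeR adjusted p = 0.9995) and Sorcs3 a log2 fold change of -0.20 (95% interval -0.78 to 0.38, edgeR adjusted p = 0.9995). For every member but Ngfr the sham and naïve rats differed from each other by more than the group means did, for example with 162 and 99.4 CPM for Bdnf and 353 and 221 CPM for Sorcs3.

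In the Penk granule cluster, where Sorcs3 was highest among the granule clusters, both TBI rats (559.6 and 527 CPM) were below both control rats (717 and 590.5 CPM), with a log2 fold change of -0.32 (95% interval -0.66 to 0.02, edgeR adjusted p = 0.999). Bdnf in this cluster had a log2 fold change of -0.31 (95% interval -0.79 to 0.18, edgeR adjusted p = 0.999), with TBI rat 1 lowest. Without TBI rat 1 it was -0.061 and without TBI rat 2 it was -0.62. In immature granule nuclei Sorcs3 read 178 and 190.3 CPM in the TBI rats, 287 CPM in the sham rat and 227 CPM in the naïve rat (261 UMIs), with a log2 fold change of -0.52 (95% interval -1.02 to -0.01, edgeR adjusted p = 0.991). With clusters drawn without integration, where this class held 1476 nuclei in place of 819, the log2 fold change was -0.26. The immature granule marker sum in this class was 169, 121, 163 and 295 CPM in the 2 TBI rats, the sham rat and the naïve rat. In the same order it was 54.5, 34.5, 47.1 and 44.7 CPM in granule nuclei and 101, 117, 124 and 124 CPM in GABAergic nuclei. Over the classes tested, Sorcs3 was lower in both TBI rats than in both control rats in 2 of 11 and higher in 0, where 11.2% of all tests were lower in that way. None of these passed the test.

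The smallest adjusted p of a member was that of Ntrk3 in astrocytes, which read 1351 and 1369.6 CPM in the TBI rats, 1004 CPM in the sham rat and 814 CPM in the naïve rat, with a log2 fold change of 0.52 (95% interval 0.15 to 0.89, edgeR adjusted p = 0.257). Ntf3 in astrocytes had a log2 fold change of 0.39 (95% interval 0.05 to 0.72, edgeR adjusted p = 0.336), and Ntrk2, the member with its second highest level there, had a log2 fold change of -0.23 (95% interval -0.57 to 0.10, edgeR adjusted p = 0.568), lower in both TBI rats. In this class 12.5% of genes had an unadjusted p under 0.05. The granule marker sum in the astrocyte class was 2439, 2081, 2045 and 1826 CPM in the 2 TBI rats, the sham rat and the naïve rat. In the same order, the glutamatergic marker sum was 2757, 2928, 1772 and 1639 CPM and the sum of the astrocyte markers themselves was 4674.5, 6659.8, 7149.8 and 8726 CPM. All 3 sums separated the groups, the neuronal ones being higher and the astrocyte one lower in both TBI rats, and their part in the member differences was not tested. Without integration the astrocytes fell into a cluster of lower and one of higher UMI content. In the lower-UMI cluster (544, 503, 1531 and 710 nuclei) Ntrk3 stood at 689, 756, 686 and 447 CPM and the granule marker sum at 1733, 1344, 1647 and 1189 CPM, and in the higher-UMI cluster (486, 432, 496 and 242 nuclei) at 1555, 1687, 1433 and 1271 CPM and 2656, 2476, 2605 and 2625 CPM. In the sham and naïve rats the lower-UMI cluster outnumbered the other, and in the TBI rats both were of like size. In the lower-UMI cluster alone, a choice made after seeing the data, the log2 fold change was 0.26 for Ntrk3, 0.07 for Ntf3 and -0.20 for Ntrk2.

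The other pairs with an unadjusted p under 0.05 rested on few UMIs or nuclei. Ntrk2 in committed OPC read 495 and 392.1 CPM in the TBI rats, 242 CPM in the sham rat and 215 CPM in the naïve rat (172 UMIs), with a log2 fold change of 0.91 (95% interval 0.24 to 1.58, edgeR adjusted p = 0.698). Bdnf in the excitatory cluster led by Htr2c read 52.8 and 98.2 CPM in the TBI rats, 121 CPM in the sham rat and 227 CPM in the naïve rat, with a log2 fold change of -1.38 (95% interval -2.36 to -0.40, edgeR adjusted p = 0.9997), but this cluster had 345, 24, 391 and 12 nuclei in the 4 rats and came almost wholly from TBI rat 1 and the sham rat. Ntrk3 in pericytes (149 UMIs, 140 nuclei) had a log2 fold change of 1.30 (95% interval 0.13 to 2.48, edgeR adjusted p = 0.992), beside granule marker sums of 2608, 2455, 1776 and 689 CPM in the same order of rats.

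For Sort1, Sorcs3 and Ntrk2, the TBI and control rats overlapped in the class where each gene was highest. Sort1 in oligodendrocytes had a log2 fold change of 0.08 (95% interval -0.78 to 0.94, edgeR adjusted p = 0.999), and Sorcs3 in OPC had a log2 fold change of -0.09 (95% interval -0.62 to 0.44, edgeR adjusted p = 0.999). Ntrk2 in GABAergic nuclei had a log2 fold change of 0.06 (95% interval -0.36 to 0.48, edgeR adjusted p = 0.999). Over the classes tested the log2 fold changes ran from -0.20 to 0.32 for Sort1 and from -0.29 to 0.50 for Ntf3. In CPM of the class total, Sort1 was higher in both TBI rats than in both controls in 6 of 12 classes and Ntrk3 in 7 of 13, beside 19.3% of all tests on the same basis. With the TMM scaling used for the fold changes, the groups overlapped for Sort1 in the Rspo2 cluster and for Ntrk3 in immature granule nuclei. The classes share the same 4 libraries, and the naïve library read lowest for both genes in granule nuclei and astrocytes.

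**Figure D5:**
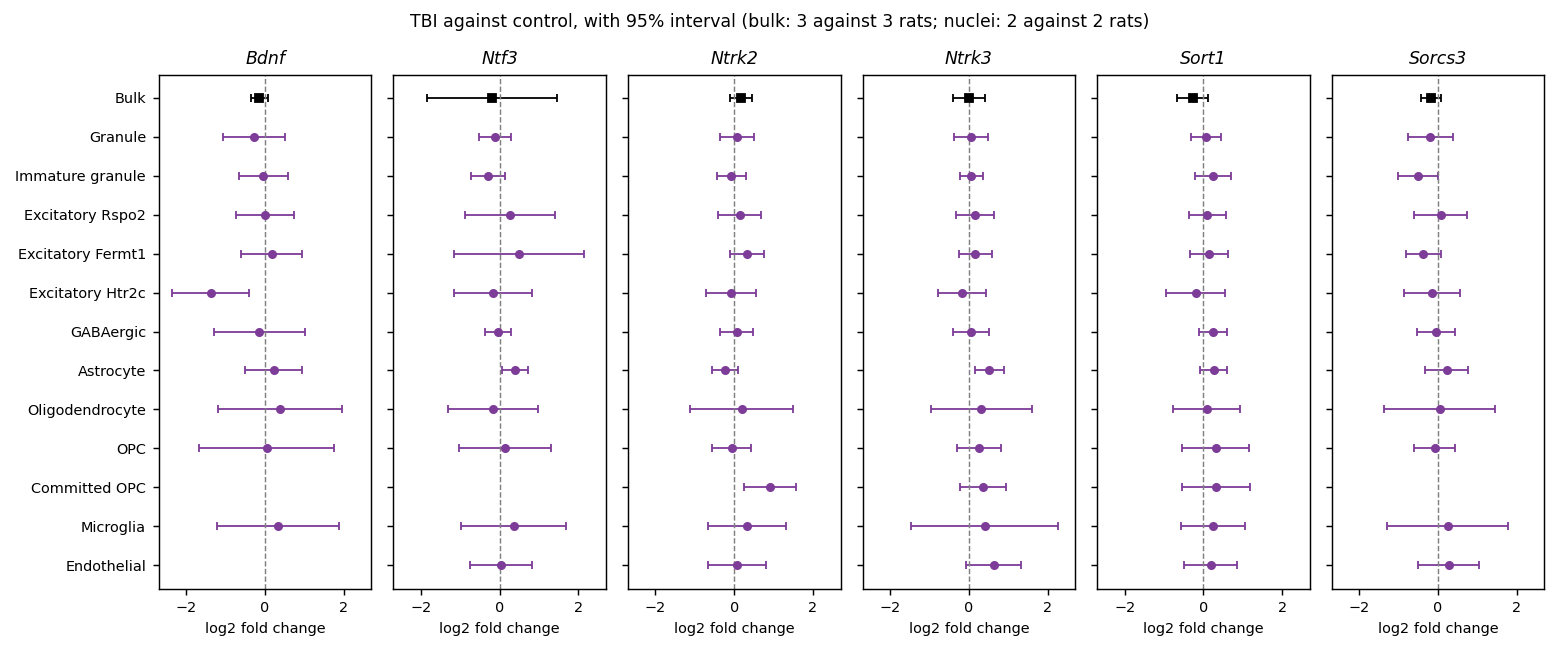
Log2 fold change, TBI against control, of 6 members in bulk tissue (black squares, 3 against 3 rats) and in nucleus classes with at least 100 UMIs (purple circles, 2 against 2 rats), with 95% intervals. Pericytes are not drawn, where Ntrk3 was tested (1.30, 95% interval 0.13 to 2.48). Most intervals include 0, and none of the values passed the adjusted threshold.

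The wider pathway list held 62 further genes, of which 55 were in the bulk test. None passed at an adjusted p of 0.05. An unadjusted edgeR p under 0.05 was found for 3 of these 55, all higher in TBI, beside 9.58% of all genes tested. The list's median log2 fold change was -0.06 beside -0.00289 over all genes. Shc1, an adaptor that couples Trk receptors to Ras, read 15.3, 22.4 and 18.4 CPM in the sham libraries and 32.5, 40.1 and 30.5 CPM in the TBI libraries (log2 fold change 0.88, 95% interval 0.47 to 1.29, edgeR adjusted p = 0.193). Nradd, which encodes a death domain protein related to p75NTR, had a log2 fold change of 1.56 (95% interval 0.61 to 2.51, edgeR adjusted p = 0.250) and Sh2b2, a Trk adaptor, a log2 fold change of 0.87 (95% interval 0.21 to 1.53, edgeR adjusted p = 0.348). The Nradd levels were low, at 0.570, 0.746 and 0.536 CPM in the sham libraries and 1.33, 2.53 and 1.59 CPM in the TBI libraries. Markers of several other cell types also had higher levels in TBI. All 12 measured microglia markers were higher in TBI (median log2 fold change 1.09), as were 5 of 5 vascular leptomeningeal (2.46), 8 of 8 pericyte (0.59) and 8 of 8 endothelial markers (0.49). The summed leptomeningeal markers were 33.01, 70.6 and 40.5 CPM in the sham libraries and 151, 72.4 and 804 CPM in the TBI libraries. In the TBI libraries the pericyte sum was 198, 178 and 569 CPM, the endothelial sum 341, 308 and 630 CPM and the microglia sum 702, 1261 and 711 CPM. Shc1, Nradd and Sh2b2 were highest in TBI replicate 2, as was the microglia sum, while the leptomeningeal, pericyte and endothelial sums were highest in TBI replicate 3. The part of these cell types in the pathway values was not tested. Of the remaining sorting receptors, Sorcs1 had a log2 fold change of -0.41 (95% interval -1.14 to 0.32, edgeR adjusted p = 0.747) and Sorcs2 a log2 fold change of -0.03 (95% interval -0.35 to 0.29, edgeR adjusted p = 0.980). Ntf4 and Sorl1 were not among the genes of the bulk table used here.

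In the nuclei 500 pairs of listed gene and class were tested, and 0 passed at an adjusted p of 0.05. At an unadjusted edgeR p under 0.05 there were 14 pairs, 10 higher and 4 lower, beside 3.13% of tests over all genes and classes. Astrocytes held 8 of these 14, from 51 listed genes tested there, in a class where 12.5% of all genes had such a p. The 3 of smallest p in astrocytes were Rtn4r, the Nogo receptor gene (log2 fold change 1.01, edgeR adjusted p = 0.179), Shc2 (0.89, adjusted p = 0.179) and Lingo1 (1.01, adjusted p = 0.205). In this class the granule marker sum was higher in both TBI rats. In granule nuclei the 3 genes of smallest p were Rps6ka3 (-0.31), Lingo1 (0.45) and Mapk3 (0.41), each with an edgeR adjusted p of 0.9995.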

How the data were processed

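For the bulk libraries the authors deposited estimated counts per transcript (kallisto within ExpressAnalyst) and a filtered gene table of log2 CPM. Gene counts were worked back from the log2 CPM with each library's total, rounded, and tested with edgeR 4.0.16 (quasi-likelihood test, TMM, filterByExpr, Benjamini-Hochberg adjustment over all genes tested). Transcripts were not tested because the tables used here do not pair their identifiers with genes.

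For nuclei the authors deposited UMI counts per gene and nucleus (Cell Ranger over exons and introns, Rnor_6.0), where 1.63% to 27.4% of stored entries had the value 0 and were used as 0. The study's filters were applied (at least 500 UMIs and 300 genes, limits of 5% mitochondrial and 2% ribosomal RNA, complexity of 0.8). Seurat 5.3.0 integrated the libraries by CCA (25 components, resolution 0.6), and clusters were named from marker lists, of which 8 genes were absent from the matrices. No doublet caller was run, and clusters carrying markers of granule neurons and glia together were kept out. Sums per rat and class were tested with edgeR where a member had at least 100 UMIs. Both tests were tried on simulated data.

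The members and all lists were chosen with earlier results of these data known. The named genes are the members, the pathway genes of smallest p, further ligands and receptors, and the genes closest in pattern to each member (up to 3). Some genes that the rule names are not reported here. Bulk replicate numbers were not treated as pairs in the main test. Same-numbered deviations correlated at 0.43, 0.29 and -0.05, which cannot decide on pairing because differently numbered libraries were not compared. Alternatives were DESeq2 1.42.0, limma 3.58.1 on the log2 CPM, other filters and scaling, the surgery period, the replicate block, each rat left out, and clustering without integration. The granule marker covariate, stored zeros counted as 1, mixed clusters added to glia, and the lower-UMI astrocyte cluster were chosen after seeing the data.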

Additional observations from a re-analysis of the deposited data

How the results depend on the processing

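No member passed the threshold in bulk tissue under any alternative run, and the count of genes called over the whole table was 0 with edgeR, 346 with DESeq2, 79 with the replicate block, 3 with the granule marker covariate and 1 without TBI replicate 3. The replicate block changed the call of no member. Bulk Ntf3 turned from a negative to a positive log2 fold change with limma (0.065), the surgery period (0.11) and the replicate block (0.014), and Ntrk3 with limma (0.045), without TMM factors (0.034), with the surgery period (0.11) and the replicate block (0.0075). Ngfr turned to 0.069 with the granule marker covariate. Leaving out 1 bulk library moved Ntf3 from -0.78 to 0.87, Ntrk3 from -0.13 to 0.18 and Ngfr from -0.39 to 0.14, while Bdnf (-0.22 to -0.11), Sort1 (-0.44 to -0.15), Sorcs3 (-0.24 to -0.11) and Ntrk2 (0.06 to 0.25) kept their sign. The cause of these shifts was not tested. In nuclei 1 pair passed with no filter on low counts (Ntrk3 in astrocytes, edgeR adjusted p = 0.0278, among 635 of 18779 genes called in that fit), and leaving out 1 rat gave 0 to 1 pairs, the 1 being Ntrk3 in pericytes without the sham rat (edgeR adjusted p = 0.0127, among 105 of 1339 genes called). Sorcs3 in OPC turned to 0.0071 with at least 1000 UMIs per nucleus. Leaving out 1 rat turned the sign of 46 of 69 pairs, and another setting that of 16. With 1 rat left out the log2 fold change in granule nuclei ran from -0.64 to 0.083 for Bdnf, -0.25 to 0.00043 for Ntf3, -0.093 to 0.25 for Ntrk2, -0.059 to 0.15 for Ntrk3, -0.035 to 0.18 for Sort1 and -0.48 to 0.14 for Sorcs3. It ran from -0.070 to 0.21 for Ntrk2 in GABAergic nuclei, -0.27 to 0.50 for Sort1 in oligodendrocytes and -0.26 to 0.11 for Sorcs3 in OPC. With 1 rat left out it kept its sign for Ntrk3 (0.37 to 0.67), Ntf3 (0.32 to 0.43) and Ntrk2 (-0.29 to -0.17) in astrocytes, Sorcs3 in the Penk granule cluster (-0.44 to -0.20) and in immature granule nuclei (-0.67 to -0.37), and Bdnf in the Penk cluster (-0.62 to -0.061). Outside these ranges were Ntrk3 (0.26) and Ntf3 (0.07) in the lower-UMI astrocyte cluster, Ntf3 with nuclei favoured by their own markers (0.50) and Sorcs3 in immature granule nuclei without integration (-0.26), among others. No paired analysis was possible for nuclei because the TBI and control rats share only replicate number 1, which both the sham and the naïve rat carry. The excitatory Htr2c cluster held 345 and 391 nuclei in TBI rat 1 and the sham rat and 24 and 12 in TBI rat 2 and the naïve rat, and no model term accounts for this. A likeness of TBI rat 1 to the sham rat, across the arms, was also seen in other classes. With TMM scaling, Ntrk3 read 1251, 666, 1190 and 254 CPM in microglia in the 2 TBI rats, the sham rat and the naïve rat. In oligodendrocytes it read 837, 455, 760 and 266 CPM, but in astrocytes 1335, 1335, 1027 and 839 CPM. Such a likeness widens the spread within each arm, and its source was not tested. The sums of transcripts per gene and the transcript tests were not run, since identifiers were not paired with genes. Where 1 rat or library was left out, the remaining sample of its arm was assumed to vary like the others.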
